A study of Homo sapiens with 6 samples.

Results

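The genes of cholesterol and fatty acid synthesis were followed in macrophage-like cells that had been given the chemokine CXCL10. The 33 genes are a fixed list of symbols, chosen by function and not by their values, though earlier results of these data were known. Of these genes, 21 form the sterol branch, from HMGCS1 to the regulators INSIG1 and SREBF2, and 12 form the fatty acid branch, from SREBF1 to ACSL3. All 33 were found by name among the 57316 gene names of the count tables. A filter on low counts left 16531 genes for testing, 31 of the 33 among them. CYP51A1 and ELOVL6, with at most 14 reads in any library, did not pass it.

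The cells were THP-1, a human monocytic leukaemia line. All had received the phorbol ester PMA at 100 ng/ml for 48 h, which drives them towards a macrophage state. One group was then given 24 h with CXCL10 protein at 100 ng/ml, and the other for the same time with a control solution. Interferons induce CXCL10, which acts on cells through the receptor CXCR3. Polyadenylated RNA of 3 CXCL10 and 3 control libraries was sequenced, with the replicate numbers 1, 3 and 4 in both groups. A single leukaemia line was used. Nothing in the labels tells if the replicates came from separate cultures, so the p-values below cover only the spread among these 6 libraries, and that spread may be technical.

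Cholesterol is made from acetyl-CoA through mevalonate, isoprenoid units, squalene and lanosterol, and fatty acids are made from the same acetyl-CoA by carboxylation, chain building, elongation and desaturation. Both branches are governed by membrane-bound transcription factors, the sterol regulatory element-binding proteins, which are held in the endoplasmic reticulum by INSIG proteins while sterols are plentiful and are cut free in the Golgi when sterols run low. SREBF2 encodes the form that mainly drives the sterol branch and SREBF1 the forms that mainly drive the fatty acid branch. In macrophages these pathways compete with cholesterol taken up from lipoproteins and dead cells, and desaturases such as that of SCD are also under control of liver X receptors.

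Library totals were 36888682, 41023583 and 34782380 reads in CXCL10 replicates 1, 3 and 4, and 38879308, 37974154 and 36022874 reads in control replicates 1, 3 and 4. Control replicate 4 stood apart from the other libraries in its share of ribosomal protein reads, and CXCL10 replicate 3 had the lowest share. Ribosomal protein genes took 12.8% of the reads in control replicate 4 and 7.67% in CXCL10 replicate 3. CXCL10 replicate 4 was near the latter at 8.40%, and the remaining libraries had 9.62% to 9.85%. Of 9 macrophage markers 8 were at 6.13 CPM (counts-per-million of the library's reads) or more in every library, and the 9 had a summed level of 3247 to 3379 CPM in CXCL10 libraries and 3234 to 3743 CPM in control libraries. The exception was CD68, at most 0.132 CPM, whose exons share 85.6% of their length with other annotated genes, so that reads over them were left out of the counts. Of 21 markers of other cell types 16 stayed under 1 CPM in all 6 libraries. The endothelial marker PECAM1, which monocytes also carry, made up nearly all of their summed level of 259 to 341 CPM in CXCL10 libraries and 269 to 360.2 CPM in control libraries.

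No gene of either branch passed the test of a difference between CXCL10 and control cells. In edgeR's quasi-likelihood test, with p-values adjusted over all 16531 genes after Benjamini and Hochberg, 0 of the 31 tested genes passed in either direction, and their lowest adjusted p was 0.684. Over all genes 0% passed. Before adjustment 1 of the 31, the sterol isomerase gene EBP, had a p under 0.05 in edgeR, on the lower side. Over all genes that share was 7.14%, made up of 2.50% higher and 4.65% lower with CXCL10. DESeq2 also called 0 of the 31, counting 1 on the lower side at an unadjusted p under 0.05, beside 7.33% of all genes. Fitted log2 fold changes ran from -0.48 for EBP to 0.37 for LSS. Intervals of 95% around these values stayed within -1 to 1 for 29 of the 31 genes, or 93.5%, beside 74.4% of all genes. They stayed within -0.5 to 0.5 for 15 genes, or 48.4%, beside 35.1% of all genes.

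Fitted values of both branches were more often above 0 than below it with all 6 libraries. With 1 library left out, that count fell most without control replicate 4. Among the 11 tested fatty acid genes the median log2 fold change was 0.23 and 11 were above 0. Among the 20 tested sterol genes it was 0.06 and 14 were above 0, where all genes had 0.02 and 54.0% above 0. Without control replicate 4 the medians were 0.04 for the fatty acid branch, with 8 of 11 above 0, and -0.04 for the sterol branch, with 8 of 20 above 0. Without control replicate 4 edgeR found 0 of the 31 genes at an unadjusted p under 0.05, beside 3.79% of all genes. Without CXCL10 replicate 3 the fatty acid median was 0.18, with 10 of 11 above 0, and the sterol median 0.00, with 10 of 20. In that fit edgeR again found 0 of the 31 at an unadjusted p under 0.05, beside 3.71% of all genes. Leaving out CXCL10 replicate 1 gave a fatty acid median of 0.13, with 9 of 11 above 0. The sterol median was then 0.04, with 11 of 20 above 0. Leaving out CXCL10 replicate 4, control replicate 1 or control replicate 3 raised both medians. The fatty acid medians were then 0.39, 0.28 and 0.30, with 11, 10 and 11 of 11 above 0. The sterol medians were 0.10, 0.07 and 0.14, with 14, 13 and 16 of 20 above 0. Control replicate 4 and CXCL10 replicate 3 were also left out together, an alternative chosen after the data were seen. The fatty acid median was then 0.00, with 5 above and 6 below 0. The sterol median was -0.04, with 7 above and 13 below 0. Relative to each gene's mean on the log2 scale, fatty acid genes were highest in CXCL10 replicate 3 (median 0.27) and lowest in control replicate 4 (-0.45). Leaving out these libraries therefore lowers the fatty acid difference by construction. All 3 CXCL10 libraries lay above all 3 control libraries for 1 of the 31 genes, HSD17B7, and below them for 0, where the shares over all genes were 5.76% above and 6.48% below, or 12.2% in all. In bulk RNA of this kind, fewer cells of a type and less RNA per cell cannot be told apart.

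**Figure D1:**
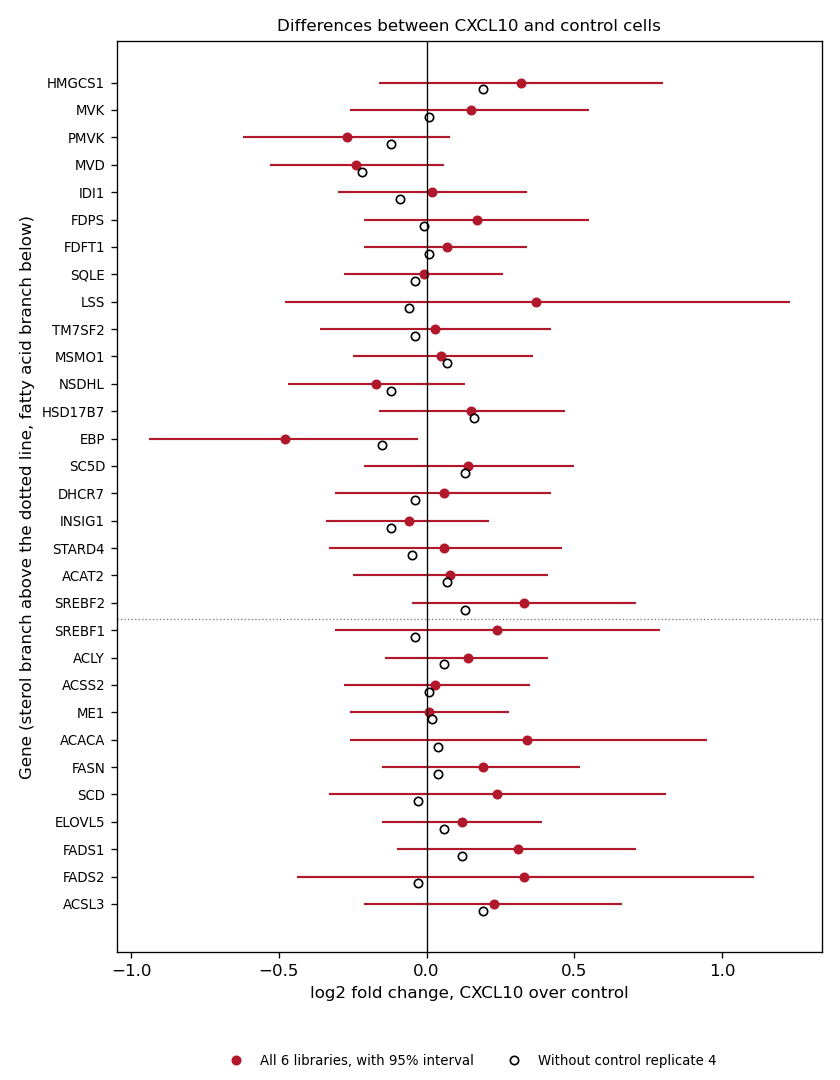
Log2 fold change of CXCL10 over control (horizontal axis) for each of the 31 tested genes (vertical axis), from all 6 libraries with its 95% interval (filled, red) and without control replicate 4 (open). The filled points run from -0.48 to 0.37, and all 11 fatty acid genes lie above 0; without control replicate 4 their median is 0.04.

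Of the transcription factors, SREBF2 came nearer to a difference than SREBF1, and neither passed. SREBF2 (chromosome 22, 41833079 to 41907307, hg38, plus strand) measured 132, 112 and 118 CPM in CXCL10 replicates 1, 3 and 4, against 107, 115 and 66.5 CPM in control replicates 1, 3 and 4. The groups overlapped through control replicate 3, and control replicate 4 was by far the lowest library. SREBF2 had a log2 fold change of 0.33 ± 0.18 (SE), with an unadjusted p of 0.0863 and an adjusted p of 0.712 by edgeR, or 0.13 without control replicate 4. SREBF1 (chromosome 17, 17810399 to 17837002, minus strand) measured 31.1, 27.7 and 19.2 CPM in CXCL10 replicates 1, 3 and 4, against 25.9, 27.6 and 12.4 CPM in control replicates 1, 3 and 4. Replicate 4 was the lowest library within each group, and the groups overlapped. Its fitted difference on the log2 scale was 0.24 ± 0.26 (SE), with an adjusted p of 0.850 by edgeR, or -0.04 without control replicate 4.

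INSIG1, whose product holds the SREBP complex in the endoplasmic reticulum and which is itself a target of SREBPs, did not pass the test either. INSIG1 (chromosome 7, 155297776 to 155310235, plus strand) measured 141, 160.3 and 154 CPM in CXCL10 replicates 1, 3 and 4, against 155, 176 and 146 CPM in control replicates 1, 3 and 4. The ranges of the groups lay largely within each other. The difference was -0.06 on the log2 scale with a 95% interval from -0.34 to 0.21 (adjusted p = 0.932 by edgeR), and 0.01 when libraries were scaled by their totals alone. STARD4, which encodes a carrier of cholesterol between membranes, ran from 48.8 to 81.5 CPM in CXCL10 libraries and from 50.9 to 71.1 CPM in control libraries, and CXCL10 replicates 1 and 3 were the lowest and the highest of the 6. ACAT2, whose enzyme joins acetyl-CoA units at the start of the pathway, averaged 27.2 ± 4.16 CPM with CXCL10 and 25.7 ± 1.48 CPM in control cells (SD, n = 3 each). Exons of ACAT2 share 52.3% of their length with SOD2-OT1, SOD2 and TCP1 on the opposite strand, and as the counting ignored strand, reads over the shared part were left out.

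The upstream DNA of 6 genes, both transcription factor genes, INSIG1, the first and a late sterol enzyme gene and a desaturase gene, is shown because SREBPs are known to act in such regions together with the factors NF-Y and Sp1. Promoters, from 250 bases before to 50 bases after a start, were taken from RefSeq (GRCh38.p14) for 29 of the 33 genes. SQLE, FDFT1, FASN and ACAT2 had no entry. Each line gives only the bases that lie before both the RefSeq start and the first annotated exon of the gene, 5′ to 3′ on the gene's strand, for SREBF2, SREBF1, INSIG1, HMGCS1, EBP and SCD. Capitals mark the letters TCACNCCAC, a form of the sterol regulatory element, and CCAAT, the core of the NF-Y site, on either strand (CCAAT reads ATTGG on the other).
SREBF2 (chr22:41832855-41833078, plus strand): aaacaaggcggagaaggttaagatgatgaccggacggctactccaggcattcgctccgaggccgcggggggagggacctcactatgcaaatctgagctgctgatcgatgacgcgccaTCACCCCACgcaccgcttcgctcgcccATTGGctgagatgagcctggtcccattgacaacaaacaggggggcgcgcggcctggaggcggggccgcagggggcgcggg
SREBF1 (chr17:17837003-17837236, minus strand): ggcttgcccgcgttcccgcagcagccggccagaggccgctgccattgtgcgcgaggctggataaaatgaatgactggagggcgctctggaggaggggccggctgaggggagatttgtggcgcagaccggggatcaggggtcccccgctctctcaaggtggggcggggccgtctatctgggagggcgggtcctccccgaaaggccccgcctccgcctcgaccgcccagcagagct
INSIG1 (chr7:155297628-155297775, plus strand): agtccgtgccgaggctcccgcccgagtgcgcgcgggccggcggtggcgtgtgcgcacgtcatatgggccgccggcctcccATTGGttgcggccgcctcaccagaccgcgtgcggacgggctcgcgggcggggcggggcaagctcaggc
HMGCS1 (chr5:43313513-43313662, minus strand): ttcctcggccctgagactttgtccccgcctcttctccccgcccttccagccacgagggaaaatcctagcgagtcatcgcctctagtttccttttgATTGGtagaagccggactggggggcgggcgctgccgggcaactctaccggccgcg
EBP (chrX:48521558-48521798, plus strand): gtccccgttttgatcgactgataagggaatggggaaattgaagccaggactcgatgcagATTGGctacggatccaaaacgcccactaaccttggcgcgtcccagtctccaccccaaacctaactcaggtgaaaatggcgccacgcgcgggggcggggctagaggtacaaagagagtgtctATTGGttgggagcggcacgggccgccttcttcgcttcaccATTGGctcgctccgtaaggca
SCD (chr10:100346983-100347232, plus strand): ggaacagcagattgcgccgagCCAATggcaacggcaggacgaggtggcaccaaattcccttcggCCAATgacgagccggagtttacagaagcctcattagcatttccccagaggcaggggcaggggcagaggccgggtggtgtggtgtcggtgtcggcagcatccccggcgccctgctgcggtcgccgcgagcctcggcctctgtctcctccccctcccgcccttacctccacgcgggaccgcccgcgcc

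In the upstream bases of SREBF2 a TCACNCCAC match and a CCAAT lay 18 bases apart, and the matches did not overlap. The SREBF1 line held neither, EBP held 3 CCAAT and SCD held 2. TCACNCCAC, searched on both strands of the full promoters, was found in 1 of the 23 promoters of the sterol branch, that of SREBF2, and in 0 of the 16 promoters of the fatty acid branch, beside 1.13% of all 35116 promoters. CCAAT was found in 18 of the 23 sterol branch promoters (78.3%) and in 9 of the 16 fatty acid branch promoters (56.2%), beside 34.6% of all promoters. GGGCGG, the core of the Sp1 site, was found in 91.3% of sterol branch promoters and 81.2% of fatty acid branch promoters, beside 45.0% of all. CACGTG, the E-box, was found in 4 of the 23 and 1 of the 16, beside 7.26% of all promoters. These matches describe letters in a window and are not mapped binding sites.

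Among the enzymes that make isoprenoid units from acetyl-CoA, HMGCS1 was the most variable. HMGCS1 (chromosome 5, 43287470 to 43313512, minus strand), which encodes the cytosolic HMG-CoA synthase, measured 20.2, 35.1 and 19.9 CPM in CXCL10 replicates 1, 3 and 4, against 19.6, 24.5 and 16.2 CPM in control replicates 1, 3 and 4. A single library, CXCL10 replicate 3, was above all others, and the remaining CXCL10 libraries lay among the controls. With all libraries HMGCS1 had a log2 fold change of 0.32 ± 0.22 (SE), an adjusted p of 0.769 by edgeR, and one of 0.00 without CXCL10 replicate 3. An annotated transcript on the opposite strand, AC114947.2, shares 37.7% of its exon length, so that its level may be too low.

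None of the kinase and decarboxylase genes that follow passed the test, and the genes were not compared with each other. MVK, the mevalonate kinase gene, averaged 8.04 ± 0.823 CPM with CXCL10 and 7.25 ± 1.33 CPM in control cells (SD, n = 3 each). Its log2 fold change was 0.15. PMVK, the phosphomevalonate kinase gene, ran from 56.0 to 76.4 CPM in CXCL10 libraries and from 65.6 to 92.0 CPM in control libraries, with a log2 fold change of -0.27 ± 0.16 (SE; adjusted p = 0.743 by edgeR). The PMVK value was -0.12 without control replicate 4 and -0.08 with the length trend of each library removed. MVD, which encodes the decarboxylase that forms isopentenyl diphosphate, measured 39.9, 33.6 and 32.8 CPM in CXCL10 replicates 1, 3 and 4, against 39.4, 43.5 and 42.5 CPM in control replicates 1, 3 and 4. CXCL10 replicate 1 alone kept the MVD groups from being separate. MVD had a log2 fold change of -0.24 ± 0.14 (SE), with an unadjusted p of 0.109 and an adjusted p of 0.734 by edgeR, or -0.22 without control replicate 4. With the length trend of each library removed the MVD value was -0.27. IDI1, the isomerase gene, and FDPS, the farnesyl diphosphate synthase gene, had log2 fold changes of 0.02 and 0.17, which were -0.09 and -0.01 without control replicate 4.

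The genes that turn farnesyl units into lanosterol spanned the highest and some of the lowest levels. SQLE (chromosome 8, 124998497 to 125022283, plus strand), the squalene epoxidase gene and a rate-limiting step of the pathway, measured 546, 615 and 639 CPM in CXCL10 replicates 1, 3 and 4, against 595, 643 and 573 CPM in control replicates 1, 3 and 4. The groups overlapped almost fully. SQLE had a log2 fold change of -0.01 with a 95% interval from -0.28 to 0.26 (adjusted p = 0.992 by edgeR), and 0.07 when libraries were scaled by their totals alone. FDFT1, the squalene synthase gene, averaged 234 ± 20.5 CPM with CXCL10 and 223 ± 19.2 CPM in control cells (SD, n = 3 each). LSS, the lanosterol synthase gene, measured 4.56, 3.94 and 4.26 CPM in CXCL10 replicates 1, 3 and 4, against 3.80, 5.08 and 0.927 CPM in control replicates 1, 3 and 4. Control replicate 4 held 31 reads of LSS, where the other 5 libraries held 147 to 192, and the groups overlapped. Its log2 fold change, the highest positive value of the 31 genes at 0.37 ± 0.40 (SE), was -0.06 without control replicate 4.

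From lanosterol to cholesterol, EBP was the gene with the lowest p. EBP (chromosome X, 48521799 to 48528716, plus strand), which encodes a sterol isomerase, measured 35.7, 29.8 and 26.4 CPM in CXCL10 replicates 1, 3 and 4, against 36.9, 31.5 and 60.2 CPM in control replicates 1, 3 and 4. The groups overlapped, and control replicate 4 was well above the other 5 libraries. For EBP the fitted log2 difference was -0.48 ± 0.21 (SE), with an unadjusted p of 0.0391 and an adjusted p of 0.684 by edgeR, or -0.15 without control replicate 4. A same-strand annotated gene, AF196969.1, shares 36.4% of the exon length of EBP, and reads over both were left out.

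The remaining late steps were close between the groups. HSD17B7, a sterol ketoreductase gene, measured 16.3, 15.3 and 15 CPM in CXCL10 replicates 1, 3 and 4, against 14.5, 13.4 and 13.9 CPM in control replicates 1, 3 and 4. These values did not overlap, with a log2 fold change of 0.15 ± 0.15 (SE; adjusted p = 0.837 by edgeR), and HSD17B7 kept a positive value in every alternative fit, from 0.12 to 0.18 with 1 library left out. MSMO1 and NSDHL, which act in removing methyl groups from lanosterol, had log2 fold changes of 0.05 and -0.17. TM7SF2, a sterol reductase gene, SC5D, a desaturase gene, and DHCR7, whose enzyme makes cholesterol from its last precursor, had log2 fold changes of 0.03, 0.14 and 0.06. SC5D was highest in CXCL10 replicate 3, at 45.4 CPM, as were HMGCS1, MSMO1 and STARD4. CYP51A1, the lanosterol demethylase gene, was listed at 10, 14 and 5 reads in CXCL10 replicates 1, 3 and 4, against 5, 4 and 0 reads in control replicates 1, 3 and 4. Of its exon length 84.5% is shared with other annotated genes, most of it with AC000120.2 on the same strand, so its level and its difference cannot be read from these counts.

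**Figure D2:**
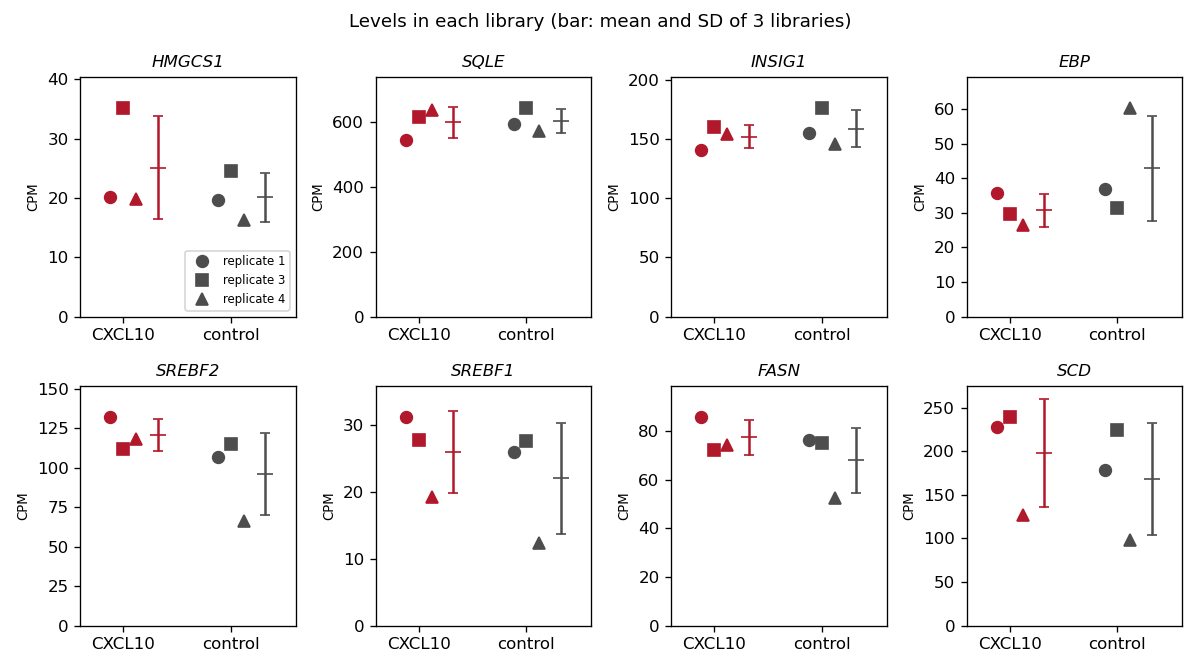
Level in CPM (vertical axis, from 0) of 8 genes in the 3 CXCL10 libraries (red) and the 3 control libraries (grey); symbols give the replicate number, and bars the mean and SD of 3 libraries. Control replicate 4 is the highest library for EBP at 60.2 CPM and the lowest for HMGCS1, SREBF2, SREBF1, FASN and SCD.

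None of the genes that supply acetyl-CoA and NADPH to fatty acid synthesis passed the test. ME1, the cytosolic malic enzyme gene, averaged 42.1 ± 1.32 CPM with CXCL10 and 41.8 ± 0.998 CPM in control cells (SD, n = 3 each), the narrowest range of the list. ACLY, which encodes the enzyme that makes acetyl-CoA from citrate, averaged 144 ± 7.74 CPM with CXCL10 and 131 ± 14 CPM in control cells. Its log2 fold change was 0.14 ± 0.13 (SE), or 0.06 without control replicate 4, its lowest library at 117 CPM. ACSS2, which encodes the enzyme that makes acetyl-CoA from acetate, had a log2 fold change of 0.03 with a 95% interval from -0.28 to 0.35.

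FASN (chromosome 17, 82078338 to 82098294, minus strand), the fatty acid synthase gene, measured 85.6, 72.3 and 74.4 CPM in CXCL10 replicates 1, 3 and 4, against 76.3, 75.2 and 52.5 CPM in control replicates 1, 3 and 4. The groups overlapped, and control replicate 4 lay below the rest. FASN had a log2 fold change of 0.19 ± 0.16 (SE), an adjusted p of 0.807 by edgeR, and a value of 0.04 without control replicate 4. ACACA, the acetyl-CoA carboxylase gene and the committed step, ran from 4.77 to 6.12 CPM in CXCL10 libraries and from 2.24 to 5.66 CPM in control libraries. The log2 value of 0.34 ± 0.28 (SE), with an adjusted p of 0.805 by edgeR, was 0.04 without control replicate 4.

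SCD and FADS2, both desaturase genes, varied widely between libraries. SCD (chromosome 10, 100347233 to 100364826, plus strand), which encodes the stearoyl-CoA desaturase that makes oleate, measured 228, 239 and 127 CPM in CXCL10 replicates 1, 3 and 4, against 179, 225 and 98.4 CPM in control replicates 1, 3 and 4. The lowest library of each group was replicate 4, and the groups overlapped. SCD had a log2 fold change of 0.24 ± 0.27 (SE), an adjusted p of 0.860 by edgeR, and a value of -0.03 without control replicate 4. The next 3 genes, whose values were singled out after they had been seen, had high or low libraries in common with SCD or HMGCS1. FADS2 (chromosome 11, 61792980 to 61867354, plus strand), which encodes the first desaturase of polyunsaturated fatty acid synthesis, measured 37.5, 34.3 and 18.2 CPM in CXCL10 replicates 1, 3 and 4, against 22.9, 38.6 and 9.90 CPM in control replicates 1, 3 and 4. As for SCD, replicate 4 was the lowest within each group. For FADS2 the log2 fold change was 0.33 with a 95% interval from -0.44 to 1.11 (adjusted p = 0.855 by edgeR), or -0.03 without control replicate 4.

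FADS1 (chromosome 11, 61799625 to 61829318, minus strand), the neighbouring desaturase gene, measured 72.1, 70.9 and 50.2 CPM in CXCL10 replicates 1, 3 and 4, against 59.5, 59.1 and 37.6 CPM in control replicates 1, 3 and 4. The groups of FADS1 overlapped through CXCL10 replicate 4. The fitted log2 difference of FADS1 was 0.31 ± 0.19 (SE), with an unadjusted p of 0.130 and an adjusted p of 0.747 by edgeR, or 0.12 without control replicate 4. Exons of FADS1 and FADS2 overlap on opposite strands over 5.57% of the exon length of FADS1, with a microRNA gene included, and such reads were left out of both.

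The elongation and activation genes differed in level more than between groups. ELOVL5, which encodes an elongase of polyunsaturated fatty acids, averaged 229 ± 17.0 CPM with CXCL10 and 211 ± 18.0 CPM in control cells (SD, n = 3 each), a log2 fold change of 0.12 ± 0.13 (SE). ELOVL6, an elongase gene of saturated fatty acids, had 4 reads in CXCL10 replicate 3 and 0 in the other 5 libraries, where a count of 0 allows up to 0.154 to 0.173 CPM. That limit of 3 fragments, or 6 reads, covers counting error only. ACSL3, which encodes an acyl-CoA synthetase of lipid droplets, measured 61.8, 109 and 57.2 CPM in CXCL10 replicates 1, 3 and 4, against 64.0, 69.6 and 60.9 CPM in control replicates 1, 3 and 4. CXCL10 replicate 3 alone was high, and the other 2 CXCL10 libraries lay below control replicates 1 and 3. For ACSL3 this gave 0.23 ± 0.20 on the log2 scale (SE), with an adjusted p of 0.820 by edgeR, or -0.12 without CXCL10 replicate 3.

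**Figure D3:**
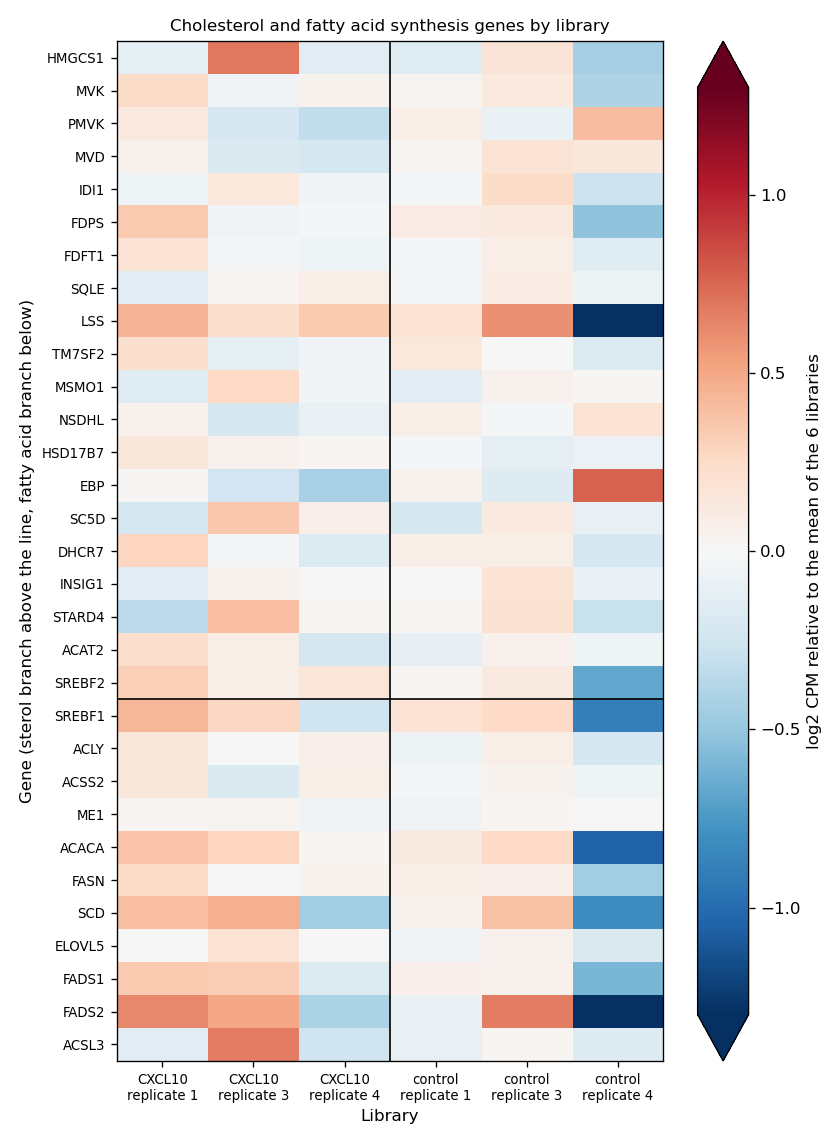
Log2 CPM of the 31 tested genes (rows) in the 3 CXCL10 and 3 control libraries (columns), relative to each gene's mean over the 6 libraries (colour, red above and blue below the mean). Control replicate 4 is the lowest library for 17 of the 31 genes, and HMGCS1 and ACSL3 stand out in CXCL10 replicate 3.

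Per length of exon, the most abundant transcripts were those of SQLE and PMVK. In RPKM, computed here as CPM per kb of exon, SQLE ranged from 127 to 149 over the 6 libraries, above every other gene of the list. PMVK followed with 55.9 to 91.8 RPKM and ELOVL5 with 50.4 to 65.3 RPKM, and these ranges overlap. FDFT1 with 39.2 to 49.6 RPKM, INSIG1 with 38.7 to 48.2 RPKM and SCD with 18.8 to 45.6 RPKM came next and overlap as well. The key enzyme genes of fatty acid synthesis were lower, with means over the 6 libraries of 26.4 RPKM for ACLY, 7.80 RPKM for FASN and 0.379 RPKM for ACACA. Of the transcription factors, SREBF2 had a mean of 14.3 RPKM and a range from 8.80 to 17.4 RPKM, and SREBF1 a mean of 2.99 RPKM and a range from 1.55 to 3.87 RPKM, which do not overlap. These levels rest on all annotated exon bases of a gene, of which 16 genes share none with another gene and 4 share over 30%.

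**Figure D4:**
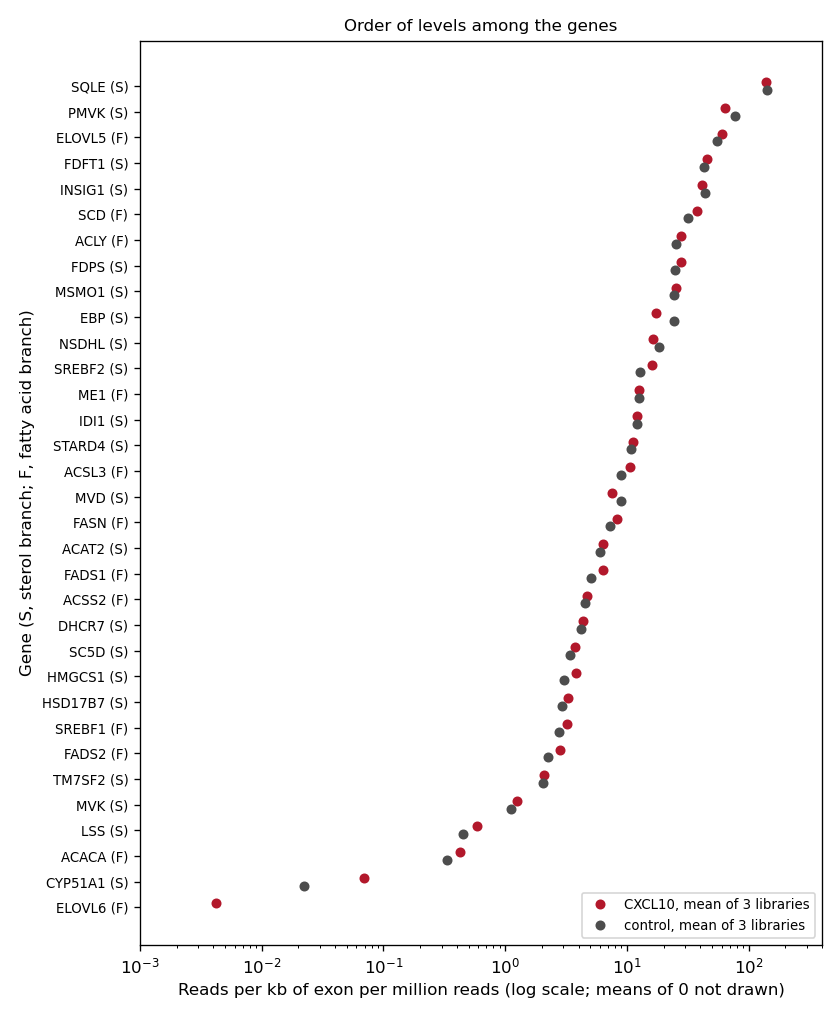
Mean level of each of the 33 genes in RPKM (CPM per kb of exon; horizontal axis, log scale) in CXCL10 (red) and control (grey) cells, ordered from SQLE at the top to ELOVL6 at the bottom. The distance between genes is far larger than that between groups, and the ELOVL6 mean of control cells is 0 and not drawn.

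Control replicate 4 stood apart within the list as well. Control replicate 4 was the lowest of the 6 libraries for 17 of the 31 genes, or 54.8%, beside 29.3% of all genes, and the highest for 3, PMVK, NSDHL and EBP. CXCL10 replicate 1 was the highest for 14, or 45.2%, beside 17.4% of all genes, and CXCL10 replicate 3 for 8, or 25.8%, beside 25.5% of all genes. The median level of the fatty acid genes, relative to each gene's mean over the libraries on the log2 scale, was 0.25, 0.27 and -0.05 in CXCL10 replicates 1, 3 and 4, against -0.03, 0.06 and -0.45 in control replicates 1, 3 and 4. For the sterol genes it was 0.09, 0.04 and -0.03 in CXCL10 replicates 1, 3 and 4, against 0.01, 0.11 and -0.13 in control replicates 1, 3 and 4.

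Annotated exon length moved with these library values. Across the 31 genes, the level in control replicate 4 relative to the other 5 libraries had a Spearman correlation of -0.74 with exon length, and that in CXCL10 replicate 3 one of 0.62. In the other libraries it was 0.40 and 0.24 in CXCL10 replicates 1 and 4, and -0.04 and 0.54 in control replicates 1 and 3, so that control replicate 4 alone was far below 0. Across all 16531 genes the values were -0.11, 0.30 and 0.19 in CXCL10 replicates 1, 3 and 4, and -0.20, -0.07 and -0.22 in control replicates 1, 3 and 4. Genes of 1 library share its depth and RNA, so these values describe the library and carry no test. PMVK, EBP and NSDHL, the genes with the shortest exon length of the 31 (1002, 1768 and 1996 bases), were the 3 that were highest in control replicate 4, and ACACA, FADS2 and FADS1, with the longest (13022, 10553 and 10230 bases), were lowest there. With the length trend of each library removed, an alternative chosen after the data were seen, the fatty acid median was 0.14, the sterol median 0.04, and edgeR found 0 of the 31 genes at an unadjusted p under 0.05, beside 5.73% of all genes. The part of the ribosomal protein share in these values was not tested.

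**Figure D5:**
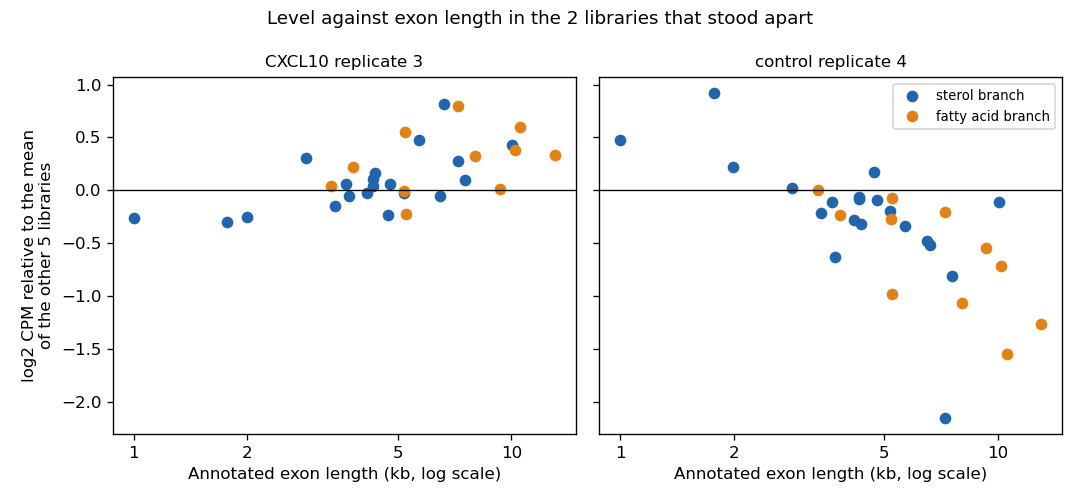
Level of each of the 31 genes in CXCL10 replicate 3 (left) and control replicate 4 (right), as log2 CPM relative to the mean of the other 5 libraries (vertical axis), against annotated exon length in kb (horizontal axis, log scale), for the sterol (blue) and fatty acid (orange) branches. Genes with a longer annotated exon length are lower in control replicate 4 (Spearman correlation -0.74) and higher in CXCL10 replicate 3 (0.62).

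Further genes around the pathway, listed apart from the 33, also had 0 passing edgeR's test over all genes in either direction. At an unadjusted p under 0.05 edgeR counted 0 of 11 genes of SREBP processing, 0 of 13 genes that use isoprenoids and 2 of 27 other fatty acid genes, both lower, beside 7.14% of all genes. Of 11 genes that act in holding, moving and cutting SREBPs, 8 were above 0, with a median log2 fold change of 0.03 and a range from -0.06 to 0.14. MBTPS1 and MBTPS2, the genes of the proteases that cut SREBPs in the Golgi, had log2 fold changes of 0.14 ± 0.13 and -0.06 ± 0.17 (SE). Scaled by library totals alone, MBTPS2 had 0.03. UBE2G2, which acts in the breakdown of proteins of the endoplasmic reticulum, had a log2 fold change of 0.08. Of 13 genes that use isoprenoids, 5 were above 0, with a median of -0.10. PDSS1, which acts in making the side chain of coenzyme Q, averaged 6.58 ± 0.661 CPM with CXCL10 and 4.81 ± 1.2 CPM in control cells (SD, n = 3 each), without overlap, and GGPS1, the geranylgeranyl diphosphate synthase gene, 25.3 ± 3.15 CPM with CXCL10 and 29.6 ± 3.49 CPM in control cells. The protein-modifying genes ICMT and RCE1 had log2 fold changes of 0.11 and -0.18.

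Of 29 other fatty acid genes 27 were tested, with a median log2 fold change of -0.03 and 12 above 0, or 0.06 and 19 above 0 (70.4%) when libraries were scaled by their totals alone, a scaling that put the median of all genes at 0.10 and 66.2% of them above 0. DBI, which encodes the acyl-CoA-binding protein, measured 471, 372 and 444 CPM in CXCL10 replicates 1, 3 and 4, against 505, 509 and 694 CPM in control replicates 1, 3 and 4. All CXCL10 libraries of DBI lay below all controls, and control replicate 4 was the highest. DBI had a log2 fold change of -0.41 ± 0.15 (SE), with an unadjusted p of 0.0187 and an adjusted p of 0.683 by edgeR, or -0.23 without control replicate 4. MCAT, a gene of mitochondrial fatty acid synthesis, also lay lower without overlap, at 15.5 ± 1.65 CPM with CXCL10 and 19.6 ± 1.16 CPM in control cells (SD, n = 3 each), with an adjusted p of 0.684 by edgeR. ACACB, the second acetyl-CoA carboxylase gene, and HSD17B12, an elongation gene, had log2 fold changes of 0.38 ± 0.20 and 0.19 ± 0.16 (SE; adjusted p = 0.702 and 0.805 by edgeR), and all CXCL10 libraries of ACACB lay above all controls. Of the 27 genes 1 lay above without overlap and 2 below, beside 5.76% and 6.48% of all genes.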

How the data were processed

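Polyadenylated RNA of 6 THP-1 libraries was sequenced after a stranded ligation kit, per the labels. Per the submitters' processing notes, Trim Galore, STAR and Subread were used with the build hg38 (versions not given in the sources used here). The deposited files hold raw read counts per gene name, which the authors obtained from featureCounts 2.0.6 over exons of GENCODE 30, per the file headers. The command counted both mates of a pair, set no strand and left out reads over 2 or more genes and reads mapped to several places. Counts therefore overstate molecules, cannot separate antisense neighbours and are too low for overlapping genes.

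Groups came from the labels. CXCL10 and control libraries were compared in edgeR 4.0.16 under R 4.3.3 (filterByExpr, TMM factors, quasi-likelihood fit, no covariates, Benjamini-Hochberg adjustment over 16531 genes, threshold 0.05). CPM rests on library totals after filtering, times the TMM factors, and RPKM divided them by exon length. Standard errors came from the fold change and its F statistic. DESeq2 1.42.0, other scalings and filters, a replicate block, each library left out, 2 libraries left out and removal of the length trend were alternatives. Member lists keep the 31 genes of the main filter in all of them. No pair of libraries held identical counts.

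The members, lists and tests were chosen with earlier results of these data known. Library values are given for genes with an unadjusted p under 0.05 and for 7 genes of a fixed rule (HMGCS1, SQLE, INSIG1, SREBF2, SREBF1, FASN and SCD), and from each further list results are given for up to 2 genes per direction with the lowest p, except 1 gene that is not reported here. Library values of MVD, LSS, HSD17B7, CYP51A1, FADS1, FADS2 and ACSL3 were added after their values had been seen.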

Additional observations from a re-analysis of the deposited data

How the results depend on the processing

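The counts of called genes rested on filtering and on the choice of libraries, while no setting called a gene of the list. Of 434 values of the 31 genes under the 14 alternatives, 42 had the other sign, 0 passed the threshold, and 11 genes kept their sign throughout. Genes called over the whole table were 137 without a filter on low counts, 6 without control replicate 4 and CXCL10 replicate 3 together (chosen after seeing the data, like removal of the length trend), and 0 elsewhere. With library totals alone 0 genes of the list had an unadjusted p under 0.05 by edgeR, beside 6.96% of all genes. With the length trend removed they were 0, beside 5.73%. Without a filter they were 4, beside 6.64% of 30869 genes, an unlike set that takes in genes of low counts. With libraries left out they were 0 to 4. They were 0 without CXCL10 replicate 3 (3.71% of all genes), without control replicate 4 (3.79%) or without both (4.33%). They were 3 without CXCL10 replicate 1 (12.3%) and 4 without control replicate 3 (9.44%). With the replicate number as a block 4 were at that p (SREBF2, FADS1 and FADS2 higher, EBP lower), beside 1323 of the 16531 genes, and 0 passed. Libraries of the same number did not deviate together over all genes (correlations 0.03, 0.02 and -0.05), so the numbers were not taken to pair them; over the 31 genes the correlations were 0.41, 0.25 and 0.36 and each library correlated best with its own number, a hint from the data and not from the design. With libraries left out the sterol median was -0.04 to 0.14 (-0.04 without control replicate 4 and without both), and the fatty acid median 0.00 without both and 0.04 to 0.39 without 1. The log2 fold changes that turned were, with the length trend removed, IDI1 0.00 and ACSS2 -0.01, and with library totals alone, SQLE 0.07 and INSIG1 0.01. With 1 library left out, or control replicate 4 and CXCL10 replicate 3 both, the values ran, in log2, from -0.14 to 0.50 for HMGCS1, from -0.16 to 0.17 for IDI1, from -0.01 to 0.29 for FDPS, from -0.01 to 0.15 for FDFT1, from -0.06 to 0.05 for SQLE, from -0.06 to 0.85 for LSS, from -0.07 to 0.11 for TM7SF2, from -0.07 to 0.14 for MSMO1, from -0.03 to 0.28 for SC5D, from -0.08 to 0.15 for DHCR7, from -0.16 to 0.03 for INSIG1, from -0.26 to 0.23 for STARD4, from -0.02 to 0.20 for ACAT2, from -0.09 to 0.45 for SREBF1, from -0.04 to 0.13 for ACSS2, from -0.01 to 0.04 for ME1, from -0.19 to 0.53 for SCD, from -0.01 to 0.20 for ELOVL5, from -0.14 to 0.89 for FADS2 and from -0.17 to 0.39 for ACSL3; the cause was not tested. Depth limits LSS and ACACA, which had the fewest reads of the 31 genes, and ELOVL6, which could not be tested; shared exons limit CYP51A1. With 3 libraries per group the 95% interval excluded a log2 difference of 0.5 in both directions for 15 of the 31 genes.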
